A study of Arabidopsis thaliana with 24 samples.

Results

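WRKY6, WRKY22 and WRKY53 are 3 genes of the WRKY family of plant transcription factors, followed here through roots and shoots of salt-treated Arabidopsis thaliana. They were chosen by name, with earlier results of these data known. Counts of called genes set beside shares of all probe sets are therefore descriptive and not a test. Each of the 3 genes had 1 probe set assigned to it alone: 264746_at for WRKY6 (AT1G62300), 255568_at for WRKY22 (AT4G01250) and 254231_at for WRKY53 (AT4G23810). They are 3 of the 13350 genes that had a probe set of their own, and 3 of 7 such WRKY genes out of 72 in the family list used. All 3 passed the filter on low signals.

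WRKY proteins bind short DNA elements called W-boxes in the promoters of their target genes, among them defence genes and other WRKY genes. WRKY6 is known as a regulator in senescing leaves, in defence and in the response to phosphate shortage. WRKY22 acts downstream of a MAP kinase cascade that is switched on when the plant perceives microbial patterns, and WRKY53 promotes the onset of leaf senescence.

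The plants were Col-0, the common laboratory accession, and all of them received 150 mM NaCl in their medium from day 16. Roots and shoots were collected 0.5, 1, 3, 6, 12 and 24 h later, giving 12 groups of 2 ATH1 arrays, 24 in all. Since untreated plants were not analysed here, later times were set against 0.5 h of salt in the same tissue, itself a treated time. The treatment began 3 h into a 16 h day of light, so time after salt cannot be told apart from time of day or from plant age. The samples of 24 h and 0.5 h were nearly a day apart and thus close in time of day.

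The tissue labels were checked with marker genes. The 4 measured shoot markers, which act in photosynthesis (PRK, RCA, PSAE1) or in guard cell formation (FMA), had a summed signal per array of 106 to 548 in roots, against 9256 to 17709 in shoots. The 2 measured root markers, PYK10, a root glucosidase, and EXPA7, a root hair expansin, summed to 2855 to 4319 in roots, against 209 to 1049 in shoots. This sum rests on PYK10, which ran from 2841 to 4295 in roots and from 205 to 1034 in shoots. EXPA7 overlapped between the tissues, with 9.84 to 92.2 in roots and 2.57 to 18.5 in shoots, and does not separate them alone. No marker was at 0 on any array. Within 11 groups the 2 arrays correlated across probe sets at 0.961 to 0.984, but those of roots at 12 h correlated at 0.857. Whether paired arrays of a group stem from different cultures is not stated in the labels, and the p-values below therefore reflect the spread among these arrays alone, which may be technical.

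All 3 genes were called higher in roots at 3 and 6 h, where 8.2% and 11% of all probe sets were, and had their highest mean signal at 6 h. None was called higher than at 0.5 h in shoots, where 0.467% to 7.82% of probe sets were. In roots WRKY22 was not called at 1 h (a log2 difference of -0.09 ± 0.49 from 0.5 h) and differed by 4.14 ± 0.49 at 6 h. WRKY6 and WRKY22 were still above 0.5 h in roots at 24 h, while WRKY53 was not called different from 0.5 h at 12 or 24 h. In shoots WRKY22 was called lower at 3 and 6 h and WRKY53 at 12 and 24 h. These calls do not order the falls in time, since for each gene both arrays of 0.5 h lay above all later ones. At 1 h, uncalled, WRKY53 was already at -1.56, against -1.47 at 12 h, and WRKY22 was at -1.22. Differences are limma estimates on the scale log2(signal + 2.20), given with their SE, and a probe set was called where the Benjamini-Hochberg adjusted p over 15199 tested probe sets was under 0.05 and the change was at least 2-fold. This scale understates the change of dim genes, and the number of arrays limits the precision.

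**Figure D1:**
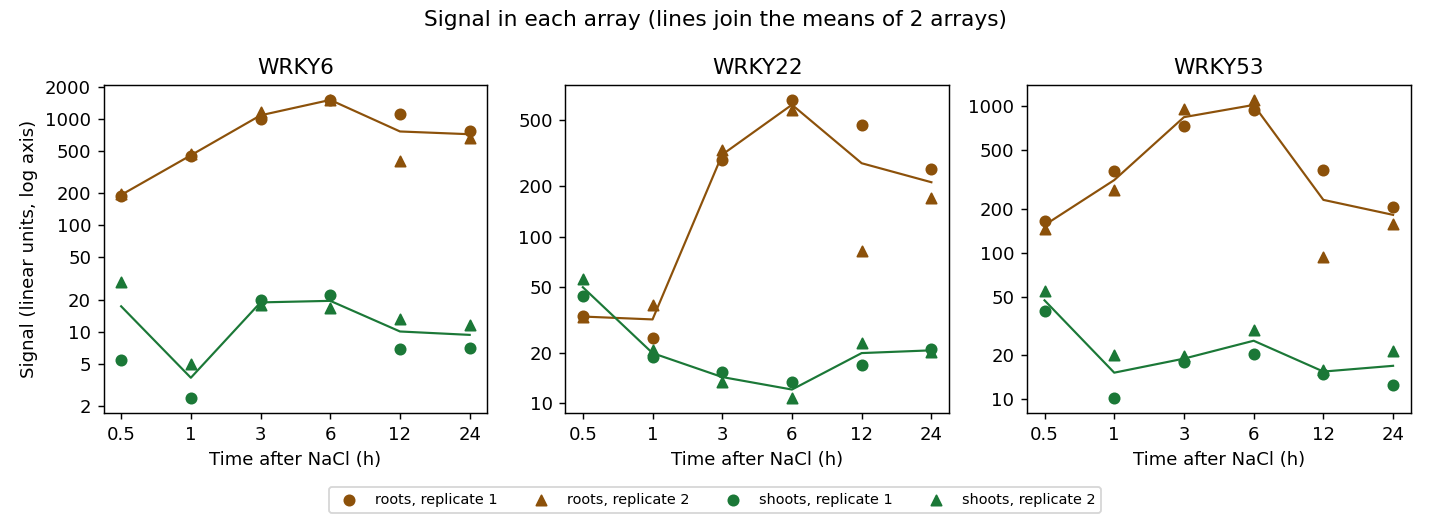
Signal of WRKY6, WRKY22 and WRKY53 on each array (y axis, linear signal units drawn on a log axis, with a scale of its own for each gene) against time after NaCl in h (x axis, evenly spaced). Brown marks are roots and green marks shoots, circles are replicate 1 and triangles replicate 2, and lines join the means of 2 arrays. In roots each gene peaks at 6 h, and the 2 arrays of 12 h lie far apart.

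In roots WRKY6 had signals of 188 and 198 (0.5 h), 443 and 465 (1 h), 989 and 1165 (3 h), 1499 and 1504 (6 h), 1117 and 402 (12 h), and 773 and 659 (24 h). Both arrays of every later time lay above both arrays of 0.5 h. In order of the mean signal the times ran 6, 3, 12, 24, 1 and 0.5 h. The neighbours 3 and 12 h overlapped, as did 12 and 24 h, while the other neighbours did not. The mean at 6 h was 1501 ± 3.58, against 193 ± 6.91 at 0.5 h (SD, n = 2 each), and the 6 h mean was 7.79 times the 0.5 h mean. The mean at 24 h was 47.7% of that at 6 h. In bulk tissue such as this, more RNA per cell cannot be told apart from more cells that hold the RNA.

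WRKY22 in roots had signals of 33.3 and 32.8 (0.5 h), 24.6 and 38.9 (1 h), 289 and 332 (3 h), 663 and 576 (6 h), 469.9 and 81.6 (12 h), and 253 and 171 (24 h). The arrays of 0.5 h lay within the range of those of 1 h, and both groups lay below every array of 3, 6, 12 and 24 h. The 6 h group lay above all others, while 3, 12 and 24 h followed with ranges that overlapped those of 12 h. The mean was 619.7 ± 61.3 at 6 h, against 33.0 ± 0.396 at 0.5 h (SD, n = 2 each), a ratio of 18.8. At 0.5 and 1 h all 4 root arrays were below 41.7, the median of all values in the data, so the rise of WRKY22 began from a dim signal.

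WRKY53 in roots had signals of 163 and 145 (0.5 h), 359 and 267 (1 h), 731 and 953 (3 h), 935 and 1105 (6 h), 365 and 93.5 (12 h), and 206 and 156 (24 h). The 3 and 6 h groups overlapped each other and lay above every array of the other 4 times. Below them the order of the means was 1, 12, 24 and 0.5 h, in which each neighbour overlapped the next. The mean at 6 h was 1020.0 ± 121, against 154 ± 13.1 at 0.5 h (SD, n = 2 each). By 24 h the mean was 17.7% of that at 6 h.

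At 1 h none of the 3 genes was called in roots, where 0.375% of all tested probe sets were called higher. The estimate of WRKY6 was 1.23 ± 0.51 (adjusted p = 0.463) and that of WRKY53 was 0.999 ± 0.44 (adjusted p = 0.52). For WRKY22 it was -0.09 ± 0.49 (adjusted p = 0.984), with a 95% interval of -1.13 to 0.95. Both arrays of 1 h lay above both of 0.5 h for WRKY6 and for WRKY53, and for WRKY22 they lay on both sides.

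At 3 h all 3 genes were called higher in roots, with 8.2% of probe sets called higher there. WRKY22 changed by 3.15 ± 0.49 (adjusted p = 3.22e-04), WRKY6 by 2.46 ± 0.51 (adjusted p = 0.00206) and WRKY53 by 2.42 ± 0.44 (adjusted p = 9.66e-04). At 6 h all 3 were again called higher, against 11% of probe sets. The estimates then were 4.14 ± 0.49 for WRKY22 (adjusted p = 1.25e-05), 2.95 ± 0.51 for WRKY6 (adjusted p = 2.28e-04) and 2.71 ± 0.44 for WRKY53 (adjusted p = 1.45e-04). By size of the increase at 6 h WRKY22 stood at rank 132 of 15199 probe sets, WRKY6 at rank 373 and WRKY53 at rank 445. The median of all probe sets in roots itself moved by -0.19 at 3 h and -0.21 at 6 h, against 0.5 h, so relative to that median the increases were larger still. It moved by -0.11 at 12 h and -0.14 at 24 h, and in shoots by no more than 0.07 in size at any time.

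At 12 h in roots 2 of the 3 genes were called higher, where 6.84% of probe sets were. The limma estimates were 2.50 ± 0.49 for WRKY22 (adjusted p = 0.00139) and 1.79 ± 0.51 for WRKY6 (adjusted p = 0.0136), while WRKY53 stood at 0.26 ± 0.44 (adjusted p = 0.677). The 2 arrays of this group differed widely for each gene, by 2.78 times for WRKY6, 5.76 times for WRKY22 and 3.90 times for WRKY53, with replicate 1 higher each time. Elsewhere in roots the higher array of a pair was at most 1.58 times the lower for these genes. Over all tested probe sets, 2902 differed at least 2-fold between the root arrays of 12 h, against at most 883 in another group. Because the fit holds 1 spread per gene for all groups, the SE at 12 h understates this gap.

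Each root value at 12 h therefore depended on which array was kept. Without replicate 1 of 12 h WRKY6 stood at 1.05 (limma adjusted p = 0.165), and without replicate 2 at 2.52 (limma adjusted p = 0.00124). WRKY6 at 12 h was also not called without replicate 1 or replicate 2 of 0.5 h, with adjusted p = 0.0675 and 0.0571. WRKY22 passed either way, at 1.25 without replicate 1 and 3.74 without replicate 2. WRKY53 was at -0.70 without replicate 1 (limma adjusted p = 0.145) and at 1.23 without replicate 2, where it was called higher (limma adjusted p = 0.00769). The direction of WRKY53 in roots at 12 h thus rested on 1 array.

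At 24 h WRKY22 and WRKY6 were called higher in roots than at 0.5 h, where 8.02% of probe sets were. WRKY22 stood at 2.58 ± 0.49 (adjusted p = 0.00100) and WRKY6 at 1.88 ± 0.51 (adjusted p = 0.00967). WRKY6 at 24 h was not called without replicate 1 of either time, at 1.84 without that of 0.5 h (adjusted p = 0.0539) and at 1.76 without that of 24 h (adjusted p = 0.0675). WRKY53 stood at 0.22 ± 0.44 (adjusted p = 0.733), with a 95% interval of -0.71 to 1.15.

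**Figure D2:**
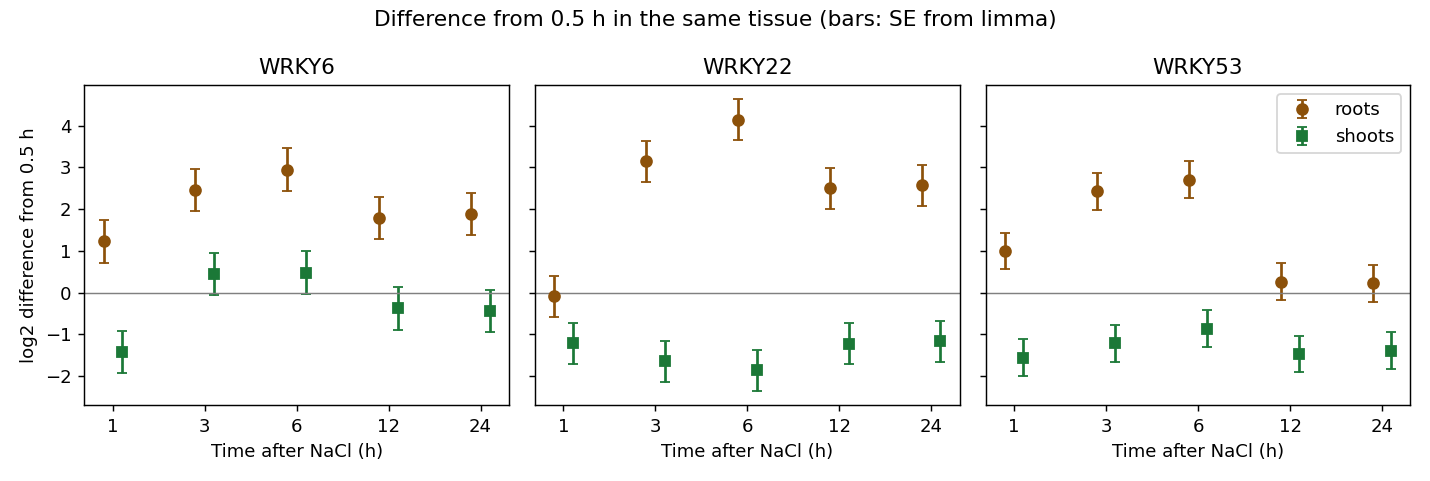
The log2 difference of each later time from 0.5 h in the same tissue (y axis) for WRKY6, WRKY22 and WRKY53 at 1, 3, 6, 12 and 24 h after NaCl (x axis). Brown circles are roots, green squares shoots, and bars are the SE from limma. The root estimates peak at 6 h, at 2.95, 4.14 and 2.71, while those of WRKY22 and WRKY53 in shoots are below 0 at every time.

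Between neighbouring root times the steps were as follows. At 3 h against 1 h WRKY22 and WRKY53 were called higher, 2 of 3 genes against 4.3% of probe sets, with WRKY22 at 3.23 ± 0.49 (adjusted p = 0.00107) and WRKY53 at 1.42 ± 0.44 (adjusted p = 0.0364). The step of WRKY6 was 1.24 ± 0.51 (adjusted p = 0.097). That of WRKY22 was the 40th highest of all tested probe sets. The step of WRKY53 was not called without any 1 of the 4 arrays of 1 and 3 h, with estimates of 1.21 to 1.63 and adjusted p of 0.0751 to 0.22, nor in a fit of roots alone (adjusted p = 0.101) or with no filter (adjusted p = 0.0505). None of the 3 genes was called between 6 and 3 h, with differences of 0.48 for WRKY6, 0.99 for WRKY22 and 0.28 for WRKY53. Only 0.901% of all probe sets were called there in either direction, so this count does not set the 3 genes apart.

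After 6 h WRKY53 fell in roots. Its difference at 12 h from 6 h was -2.44 ± 0.44 (adjusted p = 0.00217), rank 59 from the lowest of 15199, and it was called without either array of 12 h, at -3.41 and -1.47. WRKY22 was called lower too, at -1.64 ± 0.49 (adjusted p = 0.029), but not without replicate 2 of 12 h (-0.39, adjusted p = 0.456), nor without replicate 1 or 2 of 6 h (adjusted p = 0.134 and 0.0861), nor in a fit of roots alone (adjusted p = 0.117). WRKY6 was not called, at -1.16 ± 0.51 (adjusted p = 0.113). These are 2 of 3 genes, in a contrast that called 4.63% of probe sets lower.

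The estimate of 24 h against 6 h does not use the signals of 12 h, and the comparison was added after the data were seen. Its SE and adjusted p still include the wide spread of roots at 12 h, because the fit holds 1 spread per gene. WRKY53 was at -2.49 ± 0.44 (adjusted p = 8.37e-04) and was called in every fit with 1 array left out. WRKY22 was at -1.56 ± 0.49 (adjusted p = 0.0267), and was not called without any 1 of the 4 arrays of 6 and 24 h, where its estimates were -1.84 to -1.28 and the adjusted p 0.0525 to 0.167, nor in a fit of roots alone (adjusted p = 0.106). WRKY6 was at -1.07 ± 0.51 (adjusted p = 0.123). Thus 2 of 3 genes were called lower, against 5.52% of probe sets. Between 24 and 12 h no member was called, at 0.09 for WRKY6, 0.08 for WRKY22 and -0.05 for WRKY53, where 0.875% of probe sets were called in either direction.

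Over all 6 times together, limma's F test in roots passed for all 3 genes, as it did for 59.1% of probe sets. The F values were 24.6 for WRKY22, 14.5 for WRKY53 and 8.23 for WRKY6.

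In shoots all 3 genes were dim. WRKY6 lay below the median of all values on 12 of 12 shoot arrays, WRKY53 on 11 of 12 and WRKY22 on 10 of 12. None of the 3 genes exceeded 55.3 on any shoot array. WRKY6 and WRKY53 were tested because of their root signals, since the filter asked for 2 arrays at 41.7 or higher and WRKY6 had no such shoot array and WRKY53 only 1. Shoot differences of these genes are therefore differences between signals mostly below the filter level. None of the 3 genes was called higher in shoots than at 0.5 h at any time, where 0.467% to 7.82% of probe sets were. With 3 genes this count does not stand apart from these shares.

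WRKY6 in shoots had signals of 5.40 and 29.4 (0.5 h), 2.40 and 5.04 (1 h), 19.9 and 17.9 (3 h), 22.3 and 16.9 (6 h), 6.99 and 13.2 (12 h), and 7.05 and 11.7 (24 h). The 2 arrays of 0.5 h, which serve as the baseline, differed 5.45-fold, and all other groups but 1 h lay between them. In order of the mean the times ran 6, 3, 0.5, 12, 24 and 1 h, and only 1 h lay below its neighbour without overlap. No shoot difference of WRKY6 from 0.5 h was called, and they ranged from -1.42 ± 0.51 at 1 h (adjusted p = 0.168) to 0.48 ± 0.51 at 6 h (adjusted p = 0.521). Replicate 1 of 0.5 h decided the sign: without it the 3 and 6 h values were -0.58 and -0.55, and without replicate 2 they were 1.47 and 1.51, both called (limma adjusted p = 0.0388 and 0.0272). Without replicate 1 of 0.5 h WRKY6 was called lower at 1, 12 and 24 h, by -2.45, -1.41 and -1.48.

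At 3 h against 1 h in shoots WRKY6 was the only 1 of 3 genes to pass, where 4.55% of probe sets were called higher. Its estimate, which does not use 0.5 h, was 1.87 ± 0.51 (adjusted p = 0.0176), though the SE includes the spread at 0.5 h. All 4 signals behind it were below the filter level, and those of 1 h lay close to the 2.20 added before taking logs, so its size depends on that constant and no change in shoots is drawn from it. With a pseudocount of 16 the step was 0.83 and not called (limma adjusted p = 0.114). It was also not called without the first array of 1 h (1.54, adjusted p = 0.145), nor without either array of 3 h, at 1.80 and 1.94 (adjusted p = 0.0979 and 0.0666). The same step was -0.42 ± 0.49 for WRKY22 and 0.34 ± 0.44 for WRKY53.

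WRKY22 in shoots had signals of 43.9 and 55.3 (0.5 h), 18.9 and 20.9 (1 h), 15.2 and 13.4 (3 h), 13.4 and 10.7 (6 h), 16.8 and 23.1 (12 h), and 21.2 and 20.2 (24 h). Both arrays of 0.5 h lay above all 10 later ones. The later times followed in the order 24, 12, 1, 3 and 6 h, in which only 1 and 3 h were neighbours without overlap. The mean was 12.03 ± 1.90 at 6 h, against 49.6 ± 8.03 at 0.5 h (SD, n = 2 each).

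WRKY53 in shoots had signals of 40.0 and 54.4 (0.5 h), 10.1 and 20.1 (1 h), 18.0 and 19.7 (3 h), 20.4 and 29.6 (6 h), 14.9 and 15.9 (12 h), and 12.5 and 21.2 (24 h). Again both arrays of 0.5 h lay above all later ones. The order then was 6, 3, 24, 12 and 1 h, and apart from 6 and 3 h the neighbours overlapped.

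At 1 h no member was called lower in shoots, against 1.74% of probe sets, with WRKY22 at -1.22 ± 0.49 (adjusted p = 0.24) and WRKY53 at -1.56 ± 0.44 (adjusted p = 0.0658). At 3 h WRKY22 was called, the only 1 of 3 genes against 5.08% of probe sets, at -1.64 ± 0.49 (adjusted p = 0.022). At 6 h it was again the only 1, against 5.73%, at -1.86 ± 0.49 (adjusted p = 0.00847). WRKY53 was at -1.22 ± 0.44 (adjusted p = 0.0551) at 3 h and -0.87 ± 0.44 (adjusted p = 0.152) at 6 h.

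At 12 and 24 h the called gene in shoots was WRKY53, 1 of 3 against 6.5% and 6.96% of probe sets. It stood at -1.47 ± 0.44 (adjusted p = 0.0177) at 12 h and -1.40 ± 0.44 (adjusted p = 0.0231) at 24 h. WRKY22 was at -1.23 ± 0.49 (adjusted p = 0.0677) and -1.17 ± 0.49 (adjusted p = 0.081) at these times. The F test over time in shoots was at 3.54 for WRKY53 (adjusted p = 0.0484), 3.44 for WRKY22 (adjusted p = 0.0525) and 3.91 for WRKY6 (adjusted p = 0.036), while 49.5% of probe sets passed. For WRKY6 all 12 signals behind it were below the filter level, and no change over time in shoots is drawn from it. With 1 array left out in turn, F in shoots no longer passed in 7 of 24 fits for WRKY6 and in 20 of 24 for WRKY53.

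These shoot calls rest on 0.5 h as the baseline and changed with single arrays. Against 1 h, neither WRKY22 nor WRKY53 was called at any later time in shoots, and the estimates of WRKY53 turned positive (0.084 to 0.69). WRKY22 at 3 h was not called without any 1 of the arrays of 0.5 and 3 h (-1.80 to -1.48, adjusted p = 0.0627 to 0.127), and at 6 h not without replicate 2 of 0.5 h (-1.70, adjusted p = 0.064), nor without that of 6 h (-1.72, adjusted p = 0.0596). WRKY53 at 12 h was not called without replicate 2 of 0.5 h (-1.26, adjusted p = 0.122), nor without either array of 12 h (adjusted p = 0.0794 and 0.0541), and at 24 h not without replicate 2 of 0.5 h (-1.19, adjusted p = 0.141), nor when replicate 1 of 24 h was left out (-1.07, adjusted p = 0.177). In the other direction, the wide spread of roots at 12 h enters the error of the shoot tests. Without both root arrays of 12 h, WRKY22 was called lower in shoots at 5 of 5 times and WRKY53 at 4 of 5, all but 6 h. At 1 h the adjusted p was then 0.00268 for WRKY22 and 0.00214 for WRKY53.

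Set against shoots over all 6 times together, all 3 genes were higher in roots, in a contrast that called 22.4% of probe sets higher. WRKY6 differed by 5.59 ± 0.21 (adjusted p = 7.50e-14), WRKY53 by 3.86 ± 0.18 (adjusted p = 1.73e-12) and WRKY22 by 2.69 ± 0.20 (adjusted p = 1.18e-09). WRKY6 and WRKY53 passed the filter through their root signals, which favours a difference in this direction. Their p-values here are therefore not independent support for a higher signal in roots. WRKY6 signals ran from 188 to 1504 in roots with a median of 716, against 2.40 to 29.4 with a median of 12.5 in shoots. WRKY53 ran from 93.5 to 1105 with a median of 313 in roots, against 10.1 to 54.4 with a median of 19.9 in shoots. WRKY22 ran from 24.6 to 663 with a median of 212 in roots, against 10.7 to 55.3 with a median of 19.6 in shoots. For WRKY6 and WRKY53 every root array lay above every shoot array, and for WRKY22 the tissues overlapped. How many of all probe sets separate the tissues in this way was not counted, and 40.8% were called in either direction. The separation is therefore not read as a trait of these genes.

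Taken time by time, a comparison added after the data were seen, WRKY6 and WRKY53 were higher in roots at each of the 6 times. The same limit holds here, since both genes passed the filter through their root signals. At 0.5 h these were 2 of 3 genes, against 24.2% of probe sets called higher in roots, with WRKY6 at 3.65 ± 0.51 and WRKY53 at 1.67 ± 0.44. WRKY22 was then at -0.55 ± 0.49 (adjusted p = 0.337), with 33.3 and 32.8 in roots and 43.9 and 55.3 in shoots. At 1 h again 2 of 3 were called, against 23.5%, and WRKY22 was at 0.59 ± 0.49 (adjusted p = 0.309). From 3 h on all 3 genes were called. At 3, 6, 12 and 24 h the shares of probe sets called higher in roots were 24.8%, 23.5%, 21.8% and 22%. At 6 h the differences were 6.12 for WRKY6, 5.45 for WRKY22 and 5.25 for WRKY53. WRKY22 thus had no called tissue difference in the first hour and one of 3.18 to 5.45 on the log2 scale from 3 h on.

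**Figure D3:**
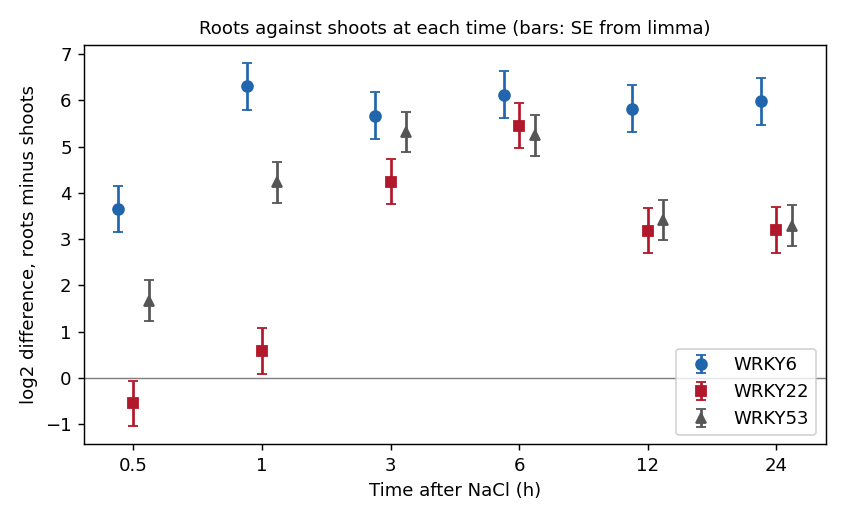
The log2 difference of roots minus shoots (y axis) at each time after NaCl in h (x axis) for WRKY6 (blue circles), WRKY22 (red squares) and WRKY53 (grey triangles), with bars for the SE from limma. WRKY22 lies near 0 at 0.5 and 1 h and at 5.45 at 6 h, while WRKY6 is at 3.65 or higher at all 6 times.

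Whether the change since 0.5 h differed between tissues was tested as an interaction, roots minus shoots. At 1 h no member passed, against 1.24% of probe sets called higher in roots, with estimates of 2.65 ± 0.72 for WRKY6 (adjusted p = 0.0794), 2.56 ± 0.62 for WRKY53 (adjusted p = 0.0511) and 1.13 ± 0.69 for WRKY22 (adjusted p = 0.525). At 3 h all 3 passed, against 8.89%. WRKY22 was at 4.79 ± 0.69 (adjusted p = 2.23e-04), WRKY53 at 3.64 ± 0.62 (adjusted p = 7.82e-04) and WRKY6 at 2.02 ± 0.72 (adjusted p = 0.0462). At 6 h all 3 passed again, against 11.4%, and WRKY22 reached 5.999 ± 0.69 (adjusted p = 1.68e-05), rank 27 of 15199. WRKY53 was then at 3.57 ± 0.62 (adjusted p = 4.03e-04) and WRKY6 at 2.47 ± 0.72 (adjusted p = 0.012).

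At 12 h the 3 genes passed against 8.67% of probe sets, with WRKY22 at 3.73 ± 0.69, WRKY6 at 2.17 ± 0.72 (adjusted p = 0.0318) and WRKY53 at 1.74 ± 0.62 (adjusted p = 0.0447). At 24 h WRKY22 (3.75 ± 0.69) and WRKY6 (2.33 ± 0.72, adjusted p = 0.0262) passed, 2 of 3 against 9%, and WRKY53 did not (1.62 ± 0.62, adjusted p = 0.0648). The interactions of WRKY22 at 3, 6, 12 and 24 h and of WRKY53 at 3 and 6 h passed in all 24 fits that left out 1 array. Those of WRKY6 did not, and their shoot side rests on signals that were all below the filter level. With 1 h as the baseline they turned to -0.63, -0.18, -0.48 and -0.33 at 3, 6, 12 and 24 h, and those of WRKY53 were 1.08, 1.02, -0.82 and -0.94, none of them called. The WRKY6 interaction at 3 h was lost in 19 of 24 fits with 1 array left out, and without replicate 2 of shoots at 0.5 h the values stood at 0.99, 1.44, 1.14 and 1.297 at 3, 6, 12 and 24 h. At 12 h it was also lost without either root array of 0.5 h or replicate 1 of 12 h in either tissue, and at 24 h without either root array of 0.5 h or replicate 1 of 24 h in either tissue. The interaction of WRKY53 at 12 h was lost in 19 of 24 such fits and was 0.77 without replicate 1 of roots at 12 h.

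Marker genes were followed over the same times. In roots the summed signal of the 4 shoot markers averaged 231, 191, 132, 111, 237 and 490.1 at the 6 times from 0.5 to 24 h, so it was lowest at the times when the WRKY genes were highest. The root hair gene EXPA7 averaged 47.5, 42.6, 13.6, 15.1, 23.0 and 83.4 in roots at the same times. PYK10, the other root marker, averaged 3151, 3360, 3058, 3428, 4065 and 3839 there. In roots limma's F test over time passed for EXPA7 (adjusted p = 0.00778) but not for PYK10 (adjusted p = 0.807). In shoots the summed signal of the 2 root markers averaged 516, 492, 788, 533, 345 and 236 over these times. The part of tissue carry-over or cell type makeup in the WRKY values was not tested.

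Of the other 4 WRKY genes with a probe set of their own, WRKY42 did not pass the filter on low signals and WRKY1, WRKY20 and WRKY47 were tested. None of these 3 was called in roots at any later time, where 0.375% to 11% of all probe sets were called higher. One of the 3, WRKY47, was called lower in shoots, where the share was 1.74% to 6.96%. With so few genes neither count stands apart from these shares. In shoots WRKY47 had signals of 61.0 and 90.4 (0.5 h), 64.1 and 69.3 (1 h), 31.3 and 23.1 (3 h), 36.0 and 39.8 (6 h), 16.2 and 32.7 (12 h), and 16.1 and 29.9 (24 h). It fell by 1.39 ± 0.31 at 3 h (adjusted p = 0.00381), 1.59 ± 0.31 at 12 h (adjusted p = 9.45e-04) and 1.66 ± 0.31 at 24 h (adjusted p = 7.38e-04), on the log2 scale. At 3 h it was not called without replicate 2 of 0.5 h (-1.12, adjusted p = 0.0583), nor when replicate 1 of 3 h was left out (-1.19, adjusted p = 0.0509). WRKY22 shared the call at 3 h and WRKY53 those at 12 and 24 h. In roots WRKY47 averaged 149 ± 37.0 at 3 h, against 80.0 ± 7.83 at 0.5 h (SD, n = 2 each), which was not called. Its change differed between tissues at 3 h (2.26 ± 0.44) and at 6, 12 and 24 h (1.18 to 1.44), of which the last 3 were lost in 9, 5 and 4 of the 24 fits that left out 1 array.

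WRKY1 and WRKY20 moved little. WRKY1 ranged from 155 to 231 in roots and from 116 to 166 in shoots, and WRKY20 from 68.2 to 99.4 in roots and from 92.2 to 128 in shoots. The F test over time passed for neither gene in either tissue, with adjusted p of 0.174 in roots and 0.991 in shoots for WRKY1, and of 0.235 and 0.227 for WRKY20.

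**Figure D4:**
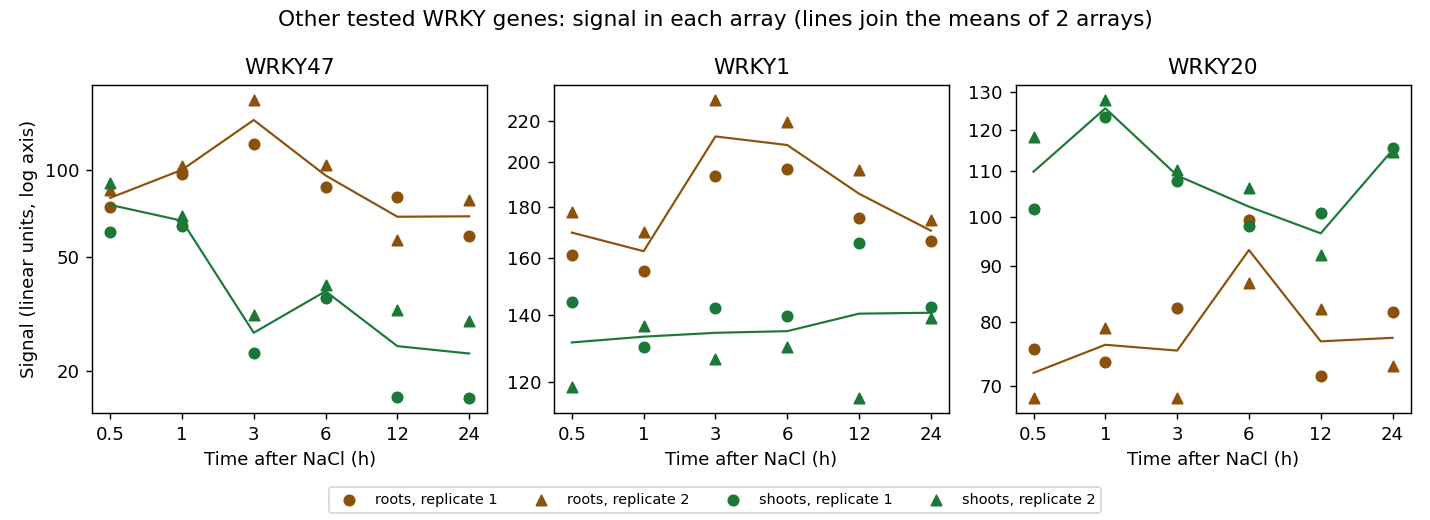
Signal of WRKY47, WRKY1 and WRKY20 on each array (y axis, linear signal units drawn on a log axis, with a scale of its own for each gene) against time after NaCl in h (x axis), in the same marks as the plot of the 3 genes described first. WRKY47 falls in shoots after 1 h, while WRKY1 and WRKY20 stay within 68.2 to 231 on all arrays.

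Further genes of the processes these WRKY factors are known for were looked up in lists. Of 22 genes of immunity and salicylic acid signalling, 2 had a probe set of their own and 1, BIK1, a kinase that relays signals of pattern receptors, was tested. It was called higher in roots at 6 h (1.23 ± 0.22, adjusted p = 3.11e-04) and lower in shoots at 3 h (-1.18 ± 0.22, adjusted p = 9.41e-04). The shoot change was under 2-fold without replicate 2 of 0.5 h (-0.97), and likewise when replicate 1 of 3 h was left out (-0.95). Of 11 senescence genes 2 were tested. SAG101, a lipase-like protein of senescence and immunity, was not called at any time. SAG29, a sugar transporter that marks senescence, was called higher in roots at 12 h (2.24 ± 0.51, adjusted p = 0.00369) and 24 h (3.05 ± 0.51, adjusted p = 4.17e-04). In shoots SAG29 was called higher at 3, 6, 12 and 24 h, at 2.16, 2.26, 1.71 and 3.96. WRKY53 was called lower in shoots at 12 and 24 h, when SAG29 was called higher there. SAG29 in roots at 12 h was 0.98 without replicate 2 of 12 h and then under 2-fold, and in shoots at 12 h it was not called without any 1 of the 4 arrays of 0.5 and 12 h (1.59 to 1.83). None of 9 listed targets and partners of the 3 WRKY factors had a probe set of its own.

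Finally, patterns were compared over the 12 group means, after each tissue's mean was taken off, across 8123 other probe sets assigned to a single gene. Such correlations rest on 12 points from 24 arrays that share a scaling, and they describe these arrays only. The 3 WRKY genes were not each other's closest matches. Pearson's r was 0.69 between WRKY6 and WRKY53, 0.66 between WRKY6 and WRKY22, and 0.63 between WRKY22 and WRKY53. WRKY53 was at rank 347 among the matches of WRKY6, and WRKY22 at rank 429. Within the 6 root means r was 0.91 for WRKY6 and WRKY22, 0.77 for WRKY6 and WRKY53 and 0.63 for WRKY22 and WRKY53. Within the 6 shoot means it was -0.21, 0.49 and 0.65 in the same order of pairs. Most shoot signals of the 3 genes, and all those of WRKY6, were below the filter level. The shoot correlations and the shoot part of each match therefore carry little weight.

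The 5 genes most like WRKY6 were AT5G35580 (r = 0.96), AT2G38790 (0.94), STZ (0.94), AT5G04760 (0.93) and AT5G67340 (0.92). Over the 24 single arrays their r was lower, at 0.86, 0.86, 0.93, 0.83 and 0.83 in the same order. STZ, also named ZAT10, encodes a zinc finger repressor that responds to salt. It differed by 2.60 at 6 h in roots and by 0.12 at 6 h in shoots, each against 0.5 h, where WRKY6 differed by 2.95 and 0.48. The 5 genes most like WRKY22 were AT3G13430 (r = 0.95), LPA1 (0.95), AT1G66090 (0.94), XTH18 (0.94) and AT1G44830 (0.94). XTH18 belongs to a family of enzymes that cut and rejoin cell wall xyloglucan, and it differed by 4.37 in roots and -0.63 in shoots at 6 h. The root differences of AT1G66090 and AT1G44830 at 6 h were 4.11 and 4.14, close to the 4.14 of WRKY22.

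For WRKY53 the 5 closest genes were AT5G54170 (r = 0.96), AT1G05575 (0.95), B120 (0.95), AT4G12790 (0.94) and AT1G76700 (0.93). B120 encodes a receptor-like kinase. The first 2 of them differed by 2.06 and 2.84 at 6 h in roots, and by -0.89 and -1.45 at 6 h in shoots. Like WRKY53, all 5 had a positive difference in roots and a negative one in shoots at 6 h, whereas the 5 genes most like WRKY6 had a positive difference in both tissues. Since likeness was the rule of choice, these agreements in sign describe the choice and are not a test.

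**Figure D5:**
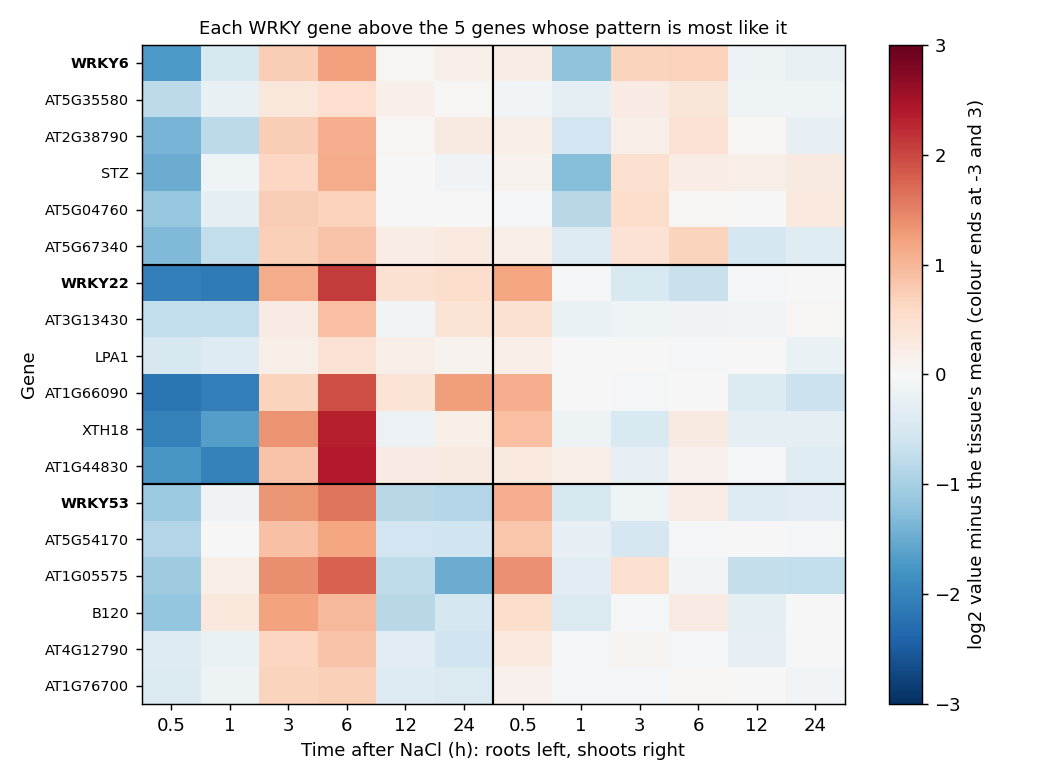
Group means of WRKY6, WRKY22 and WRKY53 (bold), each above the 5 genes whose pattern was most like it (rows), at 0.5 to 24 h after NaCl in roots (left of the line) and shoots (right of it). Colour is the log2 value minus the gene's mean in that tissue, from blue (low) to red (high). In roots the rows under WRKY22 stay low at 0.5 and 1 h and are highest at 6 h, and the rows under WRKY53 are lower again at 12 and 24 h.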

How the data were processed

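Signals of 24 ATH1 arrays were read from 1 deposited table. Its values are intensities on a linear scale, 1 per probe set, and per the submitters' processing notes the authors used MAS5, with no version given in the sources used here. Every array had a trimmed mean (2% off each end) of 99.2 to 99.5, and this scaling was kept. The median signal was 41.9 to 47.2 in roots and 37.2 to 42.0 in shoots. Of 22810 probe sets, 64 controls were left out. Genes were assigned by the platform annotation, in which 13513 probe sets had 1 gene, 503 several and 8794 none. None was named from a probe set with several genes.

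Deposited signals were turned into log2(signal + 2.20), where 2.20 is the 10th percentile of all values, and 15199 probe sets with 2 or more arrays reaching 41.7, the median of all values, were tested. A model of 12 group means was fitted with limma 3.58.1 in R 4.3.3 (lmFit, contrasts.fit, eBayes with trend), two-sided, with Benjamini-Hochberg adjustment within each contrast. Each fold change is on that log2 scale unless it is a ratio of signals, and no p was adjusted over the 3 genes. Figures were drawn with matplotlib 3.10.9 in Python 3.11.15. The procedure was tested on simulated data.

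The 3 genes and the gene lists were chosen with earlier results of these data known. The genes named are the 3 WRKY genes, up to 5 other WRKY genes and up to 3 of each other list per tissue with the highest F over time among those with an adjusted p under 0.05 and a call, and the 5 genes of highest Pearson r with each of the 3. SAG101, WRKY1, WRKY20 and WRKY42 are outside that rule and are named to account for their lists. The tissue markers are named only to check the tissue labels, with EXPA7 and PYK10 given singly after their values were seen. Comparisons of 24 h with 6 h and of the tissues at each time were added after the data were seen. Alternatives were other pseudocounts, no filter, quantile normalization, median centring, a replicate block, each tissue alone, 1 h as the baseline, and arrays left out.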

Additional observations from a re-analysis of the deposited data

Results flagged for a closer look

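The change since 0.5 h differed between roots and shoots for WRKY22 and WRKY53, by limma's test of the difference itself. WRKY6 passed the same test at 4 times, but its 12 shoot signals were all below the filter level. Its interactions also turned negative, uncalled, with 1 h as the baseline. Shoot signals of WRKY22 and WRKY53 were mostly below the filter level too, on 10 of 12 and 11 of 12 arrays. For WRKY6 the root change exceeded the shoot change by 2.02, 2.47, 2.17 and 2.33 at 3, 6, 12 and 24 h on the log2 scale. The excess for WRKY22 was 4.79, 5.999, 3.73 and 3.75 at these times. For WRKY53 it was 3.64, 3.57 and 1.74 at 3, 6 and 12 h. With 1 h as the baseline none of these was called and that at 12 h turned negative. The WRKY53 value at 12 h was also not called with a pseudocount of 16, no filter, quantile normalization or the replicate block. The adjusted p ran from 1.68e-05 (WRKY22 at 6 h) to 0.0462 (WRKY6 at 3 h). The values of WRKY6 lean on the shoot arrays of 0.5 h, which differed 5.45-fold for this gene, and those at 12 h on root arrays that differed 2.78-fold to 5.76-fold. Groups of 2 arrays were not tested for outlying arrays.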

How the results depend on the processing

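Values below are log2 differences from 0.5 h or F values, and the cause of each change was not tested unless named. Of 15 differences of the 3 genes in roots, 10 were called, and 10 were called under each other pseudocount, filter and scaling, with the replicate block and with roots alone. Leaving out 1 array gave 8 to 11. In shoots 4 of 15 were called, against 1 with a pseudocount of 16, 9 with shoots alone or without either or both root arrays of 12 h, and 2 without replicate 2 of shoots at 0.5 h. Of 15 interactions 11 were called, against 9 to 12 with another pseudocount, filter or scaling or the replicate block. Leaving out 1 array gave 6 to 14 interactions, with 6 without replicate 2 of shoots at 0.5 h, 7 without either root array of 0.5 h and 14 without replicate 2 of roots at 12 h. With 1 h as the baseline 7, 2 and 4 of 12 were called in roots, in shoots and as interactions. In the main fit 0.388% to 24.2% of all probe sets were called in either direction in roots, depending on the time. The shares were 2.21% to 14.4% in shoots and 1.44% to 29.9% for the interactions. Each count pools times that share a baseline, so its parts are not independent, and shares under the other settings are not given. The tissue difference over all times was called for all 3 genes under every setting run. In the main fit 22.4% of probe sets were called higher in roots in that contrast. WRKY6 and WRKY53 passed the filter through their root signals, so these calls are not independent support for a higher signal in roots. Only 2 arrays a group and dim shoot signals limit the precision.

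With 1 h as the baseline, WRKY6 in roots was no longer called at 3, 12 and 24 h (1.24, 0.56, 0.65), and in shoots it was called at 3 and 6 h (1.87, 1.90) and turned positive at 12 and 24 h (1.04, 0.98), uncalled. Its interactions at 3, 6, 12 and 24 h turned to -0.63, -0.18, -0.48 and -0.33, uncalled. WRKY22 in shoots lost its calls at 3 and 6 h (-0.42, -0.64) and was 0.051 at 24 h. WRKY53 in roots turned to -0.73 and -0.78 at 12 and 24 h, and in shoots to 0.34, 0.69, 0.084 and 0.16 at 3, 6, 12 and 24 h, all uncalled. Its interactions were 1.08 and 1.02 at 3 and 6 h and -0.82 and -0.94 at 12 and 24 h, uncalled.

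With a pseudocount of 16 the shoot calls of WRKY22 at 3 h (-1.11) and WRKY53 at 12 and 24 h (-1.0004, -0.95) were lost, as were the WRKY53 interaction at 12 h (1.27), F in shoots of WRKY6 (1.80) and WRKY53 (2.195), and the WRKY6 shoot step at 3 h against 1 h (0.83), while its root steps at 3 h from 1 h and at 12 and 24 h from 6 h were called (1.21, -1.14, -1.06), as they were without either shoot array of 0.5 h. With a pseudocount of 1 the WRKY6 interaction at 3 h was lost (1.96) and F of WRKY22 in shoots passed (3.67). With no filter, which tests more probe sets, the interactions of WRKY6 at 3 h (2.02) and WRKY53 at 12 h (1.74), F of WRKY53 in shoots (3.55) and its root step at 3 h against 1 h (1.42) were lost. Roots alone lost that step and the lower calls of WRKY22 at 12 and 24 h against 6 h (-1.64, -1.56). Quantile normalization lost WRKY53 in shoots at 24 h (-1.25), its interaction at 12 h (1.73) and F in shoots of WRKY6 (3.23) and WRKY53 (3.14), and gained F of WRKY22 in shoots (3.68) and the WRKY53 interaction at 1 h (2.67). Median centring gained F of WRKY22 in shoots (3.55) and the WRKY53 interaction at 1 h (2.64) and lost F of WRKY53 in shoots (3.31). Shoots alone lost F of WRKY6 (3.21) and gained that of WRKY22 (15.2), WRKY22 at 1, 12 and 24 h (-1.22, -1.23, -1.17) and WRKY53 at 1 and 3 h (-1.56, -1.22). The same 5 shoot differences were gained without both root arrays of 12 h, with F of WRKY22 in shoots at 16.5, the interactions at 1 h of WRKY6 (2.65) and WRKY53 (2.56), and that of WRKY53 at 24 h (1.62).

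The replicate block lost the WRKY53 interaction at 12 h (1.74, adjusted p = 0.0525) and its F in shoots (3.33, adjusted p = 0.0615), and changed no other call of the 3 genes against 0.5 h, between tissues or in F. Over 66 pairs of groups the deviations of same-numbered arrays correlated at -0.26 to 0.23, with 5 pairs over 0.1, and for 12 of 24 arrays the closest array of another group had the same number, so the numbers were not taken to pair arrays.

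With each array left out in turn, values ranged as follows. WRKY6 in roots ran from 1.05 to 2.52 at 12 h and 1.76 to 1.99 at 24 h. In shoots it ran from -2.45 to -0.40 at 1 h, -0.58 to 1.47 at 3 h, -0.55 to 1.51 at 6 h, -1.41 to 0.65 at 12 h and -1.48 to 0.58 at 24 h. Its interactions ran from 1.62 to 3.68, 0.99 to 3.05, 1.44 to 3.50, 1.14 to 3.20 and 1.297 to 3.35 at the 5 times, and its F in shoots from 2.05 to 9.51. WRKY22 ran from -0.40 to 0.22 in roots at 1 h, and in shoots from -1.38 to -1.06, -1.80 to -1.48, -2.02 to -1.70, -1.44 to -1.03 and -1.33 to -1.01, with F in shoots from 1.74 to 16.9. WRKY53 ran from -0.70 to 1.23 in roots at 12 h, and in shoots from -1.99 to -1.13 at 1 h, -1.43 to -1.005 at 3 h, -1.69 to -1.26 at 12 h and -1.73 to -1.07 at 24 h. Its interactions ran from 2.13 to 2.99 at 1 h, 0.77 to 2.71 at 12 h and 1.28 to 1.95 at 24 h, and its F in shoots from 1.67 to 8.85. Between 24 and 12 h in roots the ranges were -0.65 to 0.82 for WRKY6, -1.17 to 1.33 for WRKY22 and -1.02 to 0.92 for WRKY53, and between 3 and 1 h in shoots -0.085 to 0.77 for WRKY53. The count of other WRKY genes called in roots was 0 to 1, the 1 being without replicate 1 of 3 h.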
